A study of Mus musculus with 6 samples.

Results

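Wnt ligands, their receptors, their secreted antagonists and the proteins that carry the signal to the nucleus were examined in mouse lung 14 days after bleomycin. The members were all genes whose symbol on the array starts with Wnt, Fzd, Sfrp, Dkk, Nkd or Tcf7, together with Axin2, Lef1, Lrp5, Lrp6, Wif1, Ctnnb1, Porcn and Frzb, and they numbered 49 of the 12393 genes that the array reads. They comprise 19 ligands, 11 receptors, 11 secreted antagonists and 8 genes that act inside the cell. The 49 genes are covered by 75 probe sets, the groups of short oligonucleotides that each yield 1 value per array. Where a gene has several probe sets, the one with the highest mean over the 6 arrays stands for the gene, a choice that did not use the treatment.

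The study compared 3 mice given bleomycin, a DNA-damaging drug used to model lung fibrosis, with 3 mice given saline. All were labelled as wild-type male C57BL/6J mice aged 8 to 10 weeks. The dose was 1 mg/kg in 50 µl of saline, and lungs were taken on day 14. The treatment protocol names oropharyngeal delivery and the sample labels intratracheal delivery. RNA of homogenised lung without the trachea and large airways was hybridised to Affymetrix MOE430A arrays, 1 per mouse. Letters A, B and C stand for the saline arrays and D, E and F for the bleomycin arrays. Because whole lung was measured, fewer cells of a type and less RNA per cell cannot be told apart.

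Wnt proteins are lipid-modified secreted signals, and the acyltransferase encoded by Porcn attaches the lipid they need to leave the cell. They bind frizzled receptors, encoded by the Fzd genes, together with the co-receptors Lrp5 and Lrp6, which stabilises beta-catenin, encoded by Ctnnb1, so that it enters the nucleus and acts with the DNA-binding proteins of the Lef1 and Tcf7 genes. Secreted antagonists of the Sfrp and Frzb type and Wif1 bind Wnt proteins outside the cell, whereas most Dkk proteins block the Lrp co-receptors. In lung, Wnt signals take part in branching during development and in the maintenance of alveolar type 2 cells in the adult.

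All 6 arrays had medians between 7.37 and 7.41 on the log2 scale, and correlations across probe sets were 0.965 to 0.985 between groups and at least 0.986 within them. Array D stood farthest from the saline arrays on the first principal component, with a score of 44.28 against 12.88 for E and 19.79 for F. On array B the female transcript Xist was at 11.40, against 7.23 to 7.88 on the others, and the Y-linked gene Eif2s3y was at 4.05, against 7.23 to 8.02, which goes against its label as male. The lung markers Sftpc, at 13.98 to 14.38, and Scgb1a1, at 14.03 to 14.42, were high on every array, and 0 of the 10 lung marker genes passed the test in either direction. Detection calls were not used here, so a low value is given as a level and not as presence or absence.

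None of the 49 genes passed the test between bleomycin and saline. In limma's moderated test, with p-values adjusted over all 22626 probe sets and a threshold of 0.05, 0 members were higher and 0 lower, where 5.60% of all genes passed (3.70% higher and 1.90% lower). An unadjusted p under 0.05 was reached by 11 members, 22.4% of the 49, against 22.7% of all genes. The groups did not overlap for 16 members, 32.7%, against 27.9% of all genes. Bleomycin was above saline in 6 of the 49 (12.2%), against 13.3% of all genes, and below in 10 (20.4%), against 14.6%. The difference was below 0 for 33 members (67.3%), against 57.0% of all genes. It reached 0.5 log2 units with groups apart for 3, Sfrp2, Fzd4 and Axin2, 6.12% of the 49, against 9.03% of all genes. The median difference between bleomycin and saline was -0.08 log2 units over the members and -0.04 over all genes. For 45 of the 49 members the 95% interval of the difference lay within 1 log2 unit, a 2-fold change, on either side of 0. The same held for 11470 of all 12393 genes. Among the members, the intervals of Sfrp2, Frzb, Fzd4 and Axin2 reached beyond 1 log2 unit.

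**Figure D1:**
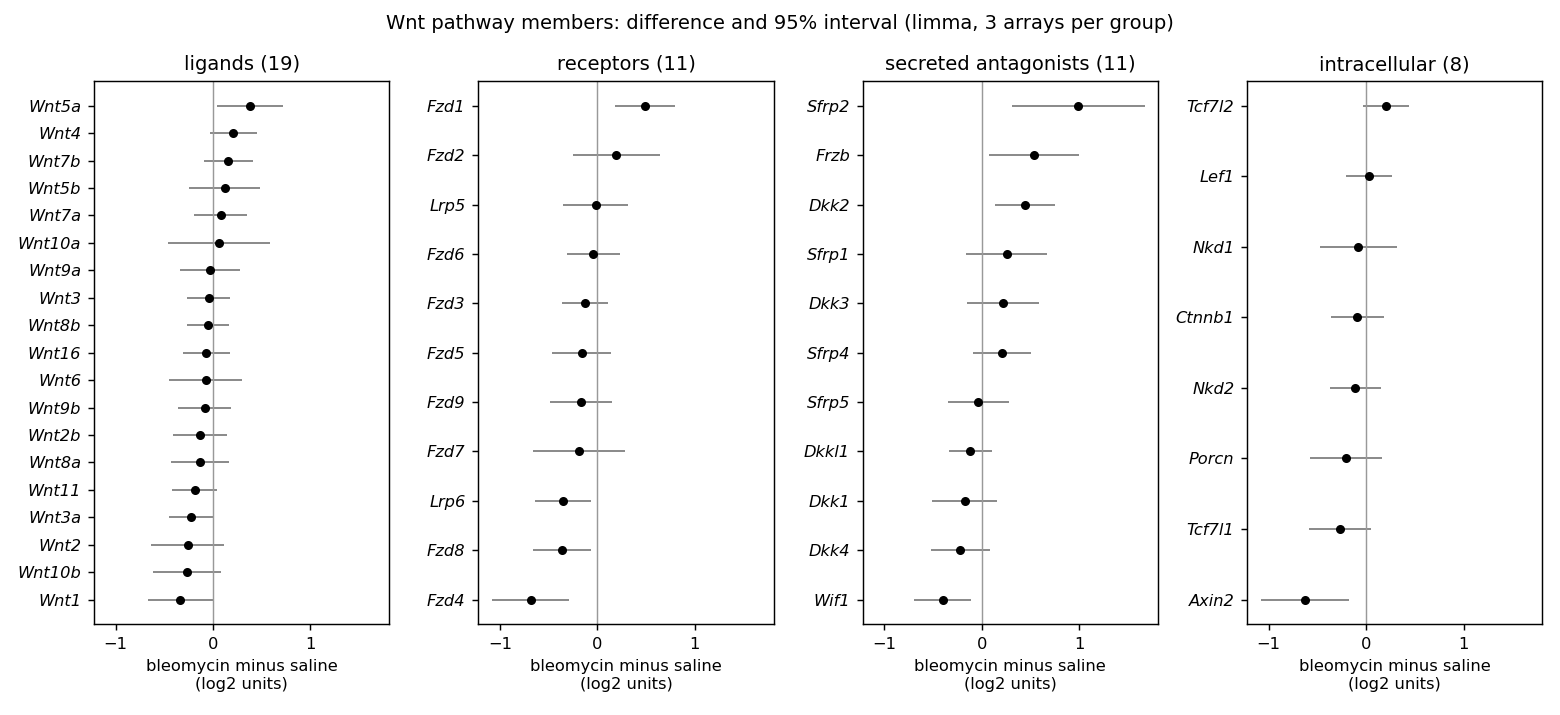
Difference between bleomycin and saline (horizontal axis, log2 units) for each of the 49 members, with limma's 95% interval, in 4 panels by role. The points run from -0.69 for Fzd4 to 0.99 for Sfrp2, and most intervals cross 0.

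Among the 19 ligands the differences were small, between -0.34 for Wnt1 and 0.38 for Wnt5a. Only 10 of the 19 had a mean at or above 5.98, the level below which 25% of all probe sets have their mean. Values of the other ligands may not be above background, so a small difference there does not show that the transcript was unchanged. The median was -0.07, and 6 ligands had a positive and 13 a negative difference. Wnt5a, a ligand that acts mainly outside the beta-catenin branch, stood at 6.93, 6.59 and 6.61 on the saline arrays and at 7.34, 6.93 and 7.00 on the bleomycin arrays. The groups touched without overlapping, since the lowest bleomycin array and the highest saline array were nearly level, and the difference was 0.38 ± 0.15 (SE, n = 3 each, adjusted p = 0.184). Its other probe set, with group means below 5.98, differed by -0.05.

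Wnt3a, a ligand that activates beta-catenin, was tightly grouped in saline lungs, at 7.60, 7.58 and 7.59, and lower on every bleomycin array, at 7.30, 7.44 and 7.37. The difference was -0.22 ± 0.10 (SE, n = 3 each, adjusted p = 0.238). Wnt4 lay on the other side, at 7.39, 7.48 and 7.26 in saline and at 7.56, 7.59 and 7.61 in bleomycin lungs, a difference of 0.21 (adjusted p = 0.297). Wnt1 and Wnt11 had groups apart as well, with bleomycin below, by -0.34 and -0.19. Wnt2, expressed in lung mesenchyme, differed by -0.26 and Wnt7b, an epithelial ligand of the lung, by 0.16, both with overlapping groups.

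The remaining ligands overlapped between groups. Wnt10b differed by -0.27, Wnt8a by -0.13, Wnt2b by -0.13, Wnt9b by -0.08, Wnt6 by -0.07, Wnt16 by -0.07, Wnt8b by -0.05, Wnt3 by -0.04 and Wnt9a by -0.03. Wnt5b differed by 0.12, Wnt7a by 0.08 and Wnt10a by 0.06. Some of these genes lie beside each other in the mouse genome with 0 protein-coding genes between them, and the differences of such pairs were -0.34 and -0.27 for Wnt1 and Wnt10b on chromosome 15, 0.06 and -0.07 for Wnt10a and Wnt6 on chromosome 1, and -0.22 and -0.03 for Wnt3a and Wnt9a on chromosome 11. Wnt3 and Wnt9b, also neighbours on chromosome 11, differed by -0.04 and -0.08.

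Of the 11 receptors, 9 had a negative difference and 2 a positive one, with a median of -0.16. The frizzled receptor Fzd4, which in vessels also binds norrin, had the largest difference downwards of all members. It stood at 8.82, 8.55 and 8.27 on the saline arrays and at 7.62, 8.12 and 7.84 on the bleomycin arrays. All 3 bleomycin arrays were below all 3 saline arrays, with D lowest. The difference was -0.69 ± 0.17 (SE, n = 3 each), with a 95% interval of -1.08 to -0.29, and did not pass the test (adjusted p = 0.0651). The second probe set of Fzd4, at 5.25 to 5.38 in saline and 5.05 to 5.20 in bleomycin lungs, differed by -0.20. Those values lie below 5.98, the level under which 25% of all probe sets have their mean. With 1 array left out at a time the difference of the first ranged from -0.82 to -0.55 and the adjusted p from 0.0514 to 0.168.

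Of 10 endothelial marker genes, 8 had a negative difference, as Fzd4 did, and Emcn (0.26) and Vwf (0.07) a positive one. Over all genes, 57.0% had a difference below 0. In the test 0 passed as higher and 2 as lower, where 3.70% of all genes were higher and 1.90% lower. The 2 were the receptor Kdr by -0.86 (adjusted p = 0.0148) and Ramp2 by -0.87 (adjusted p = 0.012), and the list median was -0.29. The mean level of the list was 10.65 to 10.98 on saline and 10.37 to 10.52 on bleomycin arrays. The direction was not particular to endothelial genes. Of 7 airway secretory and ciliated markers, 0 had a positive difference and 2 passed as lower. Their mean level was 11.05 to 11.43 on saline and 10.73 to 10.90 on bleomycin arrays. Of the 10 lung marker genes, 2 had a positive difference. The part of any of these cell types in the value of Fzd4 was not tested.

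Fzd1 was the receptor with the largest difference upwards. It stood at 4.98, 4.93 and 4.84 in saline and at 5.68, 5.32 and 5.24 in bleomycin lungs, with D highest and no overlap, a difference of 0.49 ± 0.13 (SE, n = 3 each, adjusted p = 0.0787). These levels lie below 5.98, the floor under which 25% of all probe sets have their mean. Fzd8 (-0.36, adjusted p = 0.158) and the co-receptor Lrp6 (-0.35, adjusted p = 0.152) also had all bleomycin arrays below all saline arrays. The second probe set of Lrp6 differed by -0.22. The second co-receptor, Lrp5, differed by -0.02, with an interval of -0.35 to 0.32. Its group means, 5.80 in saline and 5.78 in bleomycin lungs, lay under the floor of 5.98.

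The other frizzled receptors overlapped between groups. Fzd7 differed by -0.19, Fzd9 by -0.17, Fzd5 by -0.16, Fzd3 by -0.13 and Fzd6 by -0.04, and Fzd2 by 0.19. The signs were not the same in every probe set of Fzd2, which spanned -0.29 to 0.19, or of Fzd6, which spanned -0.04 to 0.29.

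Among the secreted antagonists, 6 of 11 had a positive difference and the median was 0.20. Sfrp2, a secreted frizzled-related protein, had the largest difference of all members. Its saline values were 7.03, 6.01 and 6.74 and its bleomycin values 8.10, 7.50 and 7.14. The groups did not overlap, but array F lay only slightly above array A and the spread within each group was wide. The difference was 0.99 ± 0.30 (SE, n = 3 each), with a 95% interval of 0.31 to 1.67, and the test was not passed (adjusted p = 0.102). Without array B, whose sex markers go against its label and which was the lowest of the 6, it was 0.70, the smallest value with any single array left out.

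Sfrp1, which binds Wnt proteins through a frizzled-like domain, was the member whose reading depended most on the probe set. The brightest of its 4 probe sets stood at 7.39, 7.51 and 8.09 in saline and at 8.03, 7.82 and 7.90 in bleomycin lungs. The groups overlapped and the difference was 0.25 ± 0.18 (SE, n = 3 each, adjusted p = 0.458). Its name carries the ending _x_at, which marks probes that can also bind other transcripts, and the names of the 3 others do not.

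The 3 other probe sets of Sfrp1 were each higher on every bleomycin array than on any saline array. The dimmest stood at 4.75, 4.75 and 5.01 in saline and at 7.24, 6.40 and 7.24 in bleomycin lungs, and rose by 2.12 ± 0.22 log2 units (SE, n = 3 each, adjusted p = 0.00214). Its saline values lay under 5.98, the level below which 25% of all probe sets have their mean, and may not be above background, so no fold is given. The third brightest rose from 6.25, 6.55 and 6.53 to 7.15, 6.92 and 7.28, by 0.68 ± 0.14 (SE, n = 3 each, adjusted p = 0.0323). The second brightest, at 6.73, 6.89 and 6.96 in saline and at 7.76, 7.33 and 7.30 in bleomycin lungs, differed by 0.60 ± 0.15 (SE, n = 3 each) and missed the threshold (adjusted p = 0.0561).

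Array E was the lowest bleomycin array in the dimmest and the third brightest probe set of Sfrp1, and D the highest in the second brightest. The rise of the dimmest passed in each of the 6 fits with 1 array left out, at 1.98 to 2.40. That of the third brightest passed only without array E (0.0334), with adjusted p-values of 0.0917 without A, 0.0561 without B, 0.0727 without C, 0.0815 without D and 0.114 without F. Centring on ribosomal protein genes also left the third brightest short of passing (0.0502), and without dim probe sets the second brightest passed (0.0484). Read as the mean of its 4 probe sets, Sfrp1 rose by 0.91 ± 0.14 (SE, n = 3 each, adjusted p = 0.00839). That mean includes the dimmest probe set, which differed most and whose saline values may not be above background. In the fit without these changes, the dimmest and the third brightest were the only probe sets of any member that passed. They were 2 of 75 or 2.67%, against 4.74% of all probe sets, and both were higher, where 3.29% of all were.

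**Figure D2:**
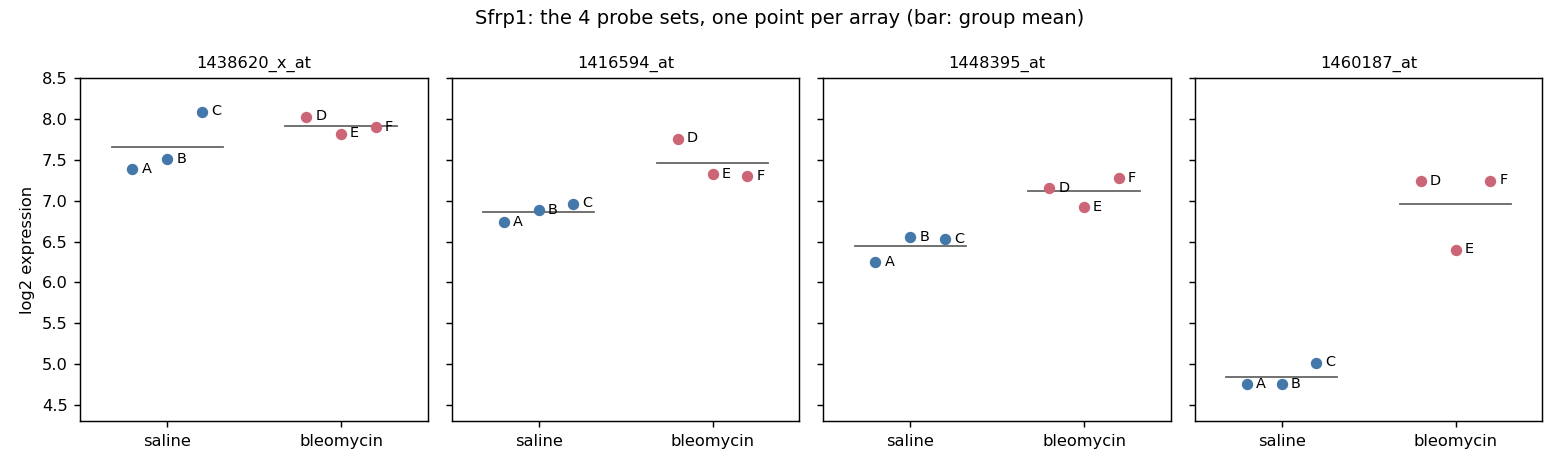
Log2 expression (vertical axis) of Sfrp1 on each array (points, letters A to F) in its 4 probe sets, saline on the left and bleomycin on the right of each panel, with the group mean as a bar. The groups overlap in the brightest, where the difference is 0.25, and are farthest apart in the dimmest, where it is 2.12.

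Frzb, another secreted frizzled-related protein, stood at 5.89, 5.70 and 6.20 in saline and at 6.78, 6.05 and 6.58 in bleomycin lungs. Array E fell within the saline range, and the difference was 0.54 ± 0.20 (SE, n = 3 each, adjusted p = 0.176). The second probe set of Frzb, with means under the floor of 5.98 and overlapping groups, differed by 0.26. Sfrp4 differed by 0.20 and Sfrp5 by -0.04, with overlapping groups in both.

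The Dkk genes did not share a direction. Dkk2, which can block or assist the Lrp co-receptors, stood at 4.47, 4.83 and 4.79 in saline and at 5.31, 5.06 and 5.07 in bleomycin lungs. All of these levels lay under the floor of 5.98, and the groups were apart, with a difference of 0.45 ± 0.13 (SE, n = 3 each, adjusted p = 0.102). Dkk3, the family member with no settled action on Wnt signalling, differed by 0.22 and 0.40 in its 2 probe sets, both overlapping. The Lrp blockers Dkk1 and Dkk4 differed by -0.17 and -0.22, and Dkkl1, a testis protein related to Dkk3, by -0.12, with groups apart for Dkk4 and Dkkl1. The saline and bleomycin means of Dkk1 (5.24 and 5.06) and Dkk4 (5.29 and 5.06) lay under the floor of 5.98. Wif1, which binds Wnt proteins directly, stood at 4.05, 4.33 and 4.28 in saline and at 3.65, 3.96 and 3.85 in bleomycin lungs, also under the floor. Its difference was -0.40 ± 0.13 (SE, n = 3 each, adjusted p = 0.119), with no overlap.

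Fibroblast markers moved both ways beside these antagonists. Of 10 such genes 2 passed as higher, the collagen gene Col1a1 by 2.10 and the proteoglycan gene Lum by 1.24, and 4 as lower, Inmt by -1.41, Limch1 by -0.85, Tcf21 by -0.80 and Itga8 by -0.63. The mean level of the list was 10.15 to 10.37 on saline and 10.11 to 10.50 on bleomycin arrays. Of 10 macrophage genes, 7 passed as higher and 0 as lower, with a mean level of 8.80 to 9.14 on saline and 10.71 to 10.90 on bleomycin arrays. Over all genes, 3.70% passed as higher and 1.90% as lower. The part of either cell type in the values of Sfrp1 and Sfrp2 was not tested.

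**Figure D3:**
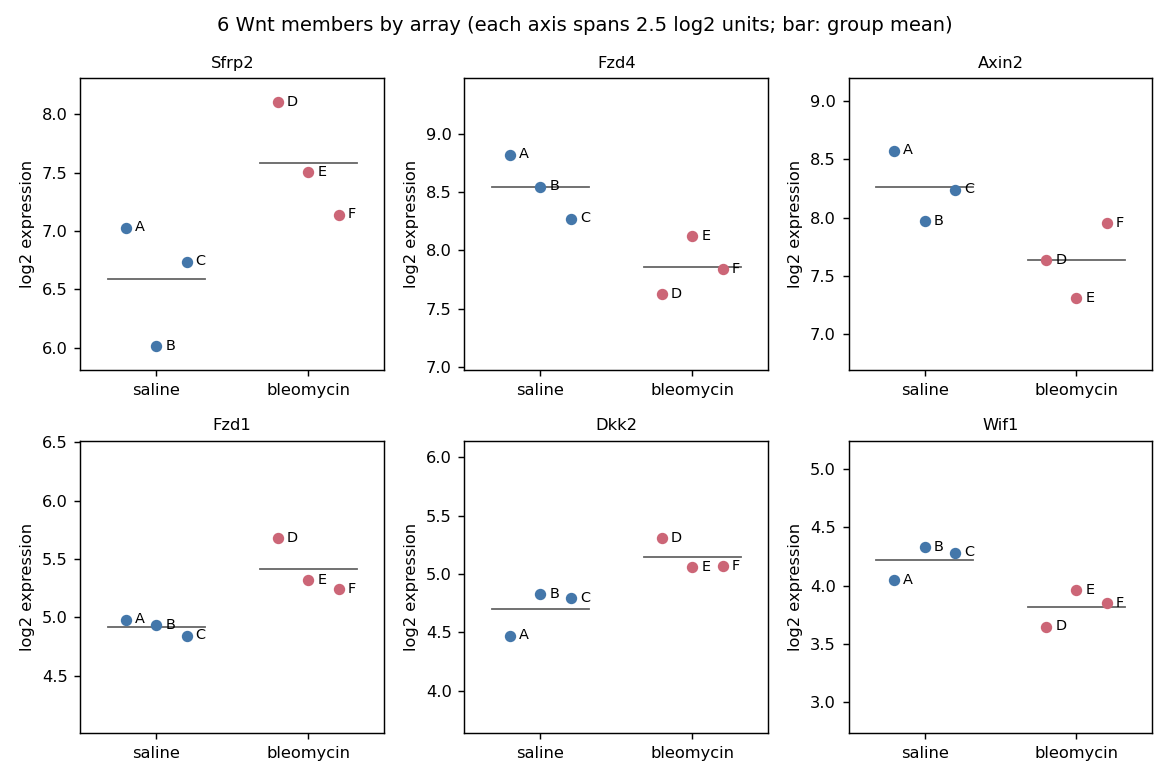
Log2 expression (vertical axis, 2.5 log2 units in each panel) of 6 members on each array (points, letters A to F), saline on the left and bleomycin on the right, with the group mean as a bar. Sfrp2, Fzd1 and Dkk2 lie higher and Fzd4, Axin2 and Wif1 lower on all bleomycin arrays, although none passed the test.

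Of the 8 genes that act inside the cell, Axin2 had the largest difference. Axin2 is a scaffold of the complex that destroys beta-catenin, and because beta-catenin switches it on it is widely used as a readout of the pathway. It stood at 8.57, 7.97 and 8.24 on the saline arrays and at 7.64, 7.31 and 7.95 on the bleomycin arrays. The groups did not overlap, although array F was nearly level with array B. The difference was -0.63 ± 0.20 (SE, n = 3 each), with a 95% interval of -1.08 to -0.18 (adjusted p = 0.116). The second probe set, at 5.07 to 5.44 in saline and 4.89 to 5.19 in bleomycin lungs, differed by -0.24. Across fits with 1 array left out the first ranged from -0.79 to -0.47.

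Ctnnb1 was the second member, besides Sfrp1, whose probe sets spanned over 0.5 log2 units. The brightest stood at 12.59, 12.48 and 12.80 in saline and at 12.45, 12.60 and 12.55 in bleomycin lungs, a difference of -0.09 ± 0.12 (SE, n = 3 each, adjusted p = 0.708). The second brightest stood at 10.59, 10.55 and 10.60 in saline and at 11.24, 10.76 and 11.05 in bleomycin lungs, without overlap, and differed by 0.44 (adjusted p = 0.108). The third differed by 0.67 (adjusted p = 0.185), with array E inside the saline range. None of the 3 passed.

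None of the members that bind DNA with beta-catenin passed. Tcf7l1, often a repressor, differed by -0.27 and -0.30 in its 2 probe sets. Tcf7l2 stood at 7.36, 7.33 and 7.35 in saline and at 7.45, 7.66 and 7.55 in bleomycin lungs, without overlap, a difference of 0.21 (adjusted p = 0.291), while its 3 other probe sets lay between -0.07 and 0.06. Lef1, which is abundant in developing T cells, differed by 0.03, with an interval of -0.21 to 0.27. Its group means, 5.04 in saline and 5.07 in bleomycin lungs, lay under the floor of 5.98. The values of Lef1 may not be above background, so the small difference does not show that the transcript was unchanged. T cell markers did not pass either: 0 of 12 were higher and 0 lower, and their mean level was 7.02 to 7.59 on saline and 7.42 to 7.53 on bleomycin arrays. Porcn differed by -0.21, and Nkd1 and Nkd2, inducible inhibitors that bind dishevelled proteins, by -0.08 and -0.11.

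Promoter windows of the members were searched for some forms of the sequence that Lef1 and Tcf7 proteins bind. The windows are the 250 bases before each gene's start in the RefSeq table of GRCm38.p6, which held 34 of the 49 members. The search took CTTTGAT and CTTTGAA, which differ only in their last letter, on both strands. Other forms were not searched, so a window with 0 matches may still hold one of those. A match was present for 3 of the 34 members (8.82%), against 2333 of 27025 genes in the table (8.63%). A gene with several starts has a window for each, and was counted if any held a match. By window the shares were 3 of 42 for the members (7.14%) and 2457 of 32851 for all genes (7.48%), so the order of the shares depends on the unit counted. Dkk1, Wnt11 and Wnt5b held 1 match each, beginning 117, 51 and 71 bases before the start, and the other windows of Wnt11 and Wnt5b held 0. The window of Axin2 is printed beside those 3 because Axin2 is the pathway's usual readout, and it held 0. Capitals mark the match, and each line runs 5′ to 3′ in the direction of the gene. The windows lie at chr11:108920099-108920348 (plus strand) for Axin2, chr19:30549497-30549746 (minus strand) for Dkk1, chr7:98834862-98835111 (plus strand) for Wnt11 and chr6:119449387-119449636 (minus strand) for Wnt5b.
Axin2: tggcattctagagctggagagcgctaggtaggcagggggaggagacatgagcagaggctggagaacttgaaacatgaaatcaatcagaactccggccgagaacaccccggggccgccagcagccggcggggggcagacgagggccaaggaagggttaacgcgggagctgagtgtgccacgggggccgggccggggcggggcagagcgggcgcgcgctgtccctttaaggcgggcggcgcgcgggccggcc
Dkk1: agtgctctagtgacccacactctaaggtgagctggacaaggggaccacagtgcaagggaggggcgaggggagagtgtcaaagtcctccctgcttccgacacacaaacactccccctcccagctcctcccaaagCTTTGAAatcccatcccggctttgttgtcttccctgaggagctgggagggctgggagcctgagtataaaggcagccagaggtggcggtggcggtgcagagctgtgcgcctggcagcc
Wnt11: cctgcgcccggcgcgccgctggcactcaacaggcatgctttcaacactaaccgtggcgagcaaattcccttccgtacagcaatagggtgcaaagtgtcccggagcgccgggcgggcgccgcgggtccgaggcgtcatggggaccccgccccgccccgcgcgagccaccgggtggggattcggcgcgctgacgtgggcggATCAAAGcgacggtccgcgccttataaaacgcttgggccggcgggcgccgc
Wnt5b: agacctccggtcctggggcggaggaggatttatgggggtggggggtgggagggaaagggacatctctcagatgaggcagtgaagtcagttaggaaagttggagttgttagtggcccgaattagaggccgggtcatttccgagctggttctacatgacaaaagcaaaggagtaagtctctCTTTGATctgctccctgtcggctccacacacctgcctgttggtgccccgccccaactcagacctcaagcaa

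The differences of the 3 genes with a match were -0.17 for Dkk1, -0.19 for Wnt11 and 0.12 for Wnt5b, and that of Axin2, without one, was -0.63. Groups were apart for Wnt11 and Axin2 only. A match in such a window is a description of its letters, and binding was not measured.

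The other genes of the pathway were read from 6 lists, with the 49 members left out. Of 135 genes, 5 rose and 3 fell, 5.93% of them, against 5.60% of all genes, and their median difference was -0.10. In the list of secretion factors and extracellular regulators, 1 of 15 rose and 0 fell. That gene, Igfbp4, encodes a binding protein of insulin-like growth factors that also inhibits Wnt receptors, and it rose from 11.57, 11.28 and 11.37 to 12.17, 11.97 and 11.83, by 0.58 (adjusted p = 0.0441). All 6 probe sets of Igfbp4 were higher, by 0.48 to 0.93, of which 2 passed, and the gene passed in 0 of the 6 fits with 1 array left out, where the adjusted p was 0.0694 to 0.122.

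Of 11 co-receptors and alternative receptors, 0 rose and 1 fell. Reck, a membrane protein that restrains metalloproteases and also helps Wnt7 ligands signal in vessels, fell from 10.11, 10.18 and 9.93 to 8.19, 8.76 and 9.01, by 1.42 (adjusted p = 0.00786). Array D was lowest, and without array A the adjusted p was 0.0554. No gene passed among the 22 of the dishevelled and destruction complex list, the 19 nuclear partners of beta-catenin or the 22 genes of the planar polarity and calcium branch. The largest differences there were -0.50 for the kinase Gsk3b, -0.71 for the co-repressor Tle2 and -1.01 for Prickle1. In the destruction complex list, 1 of the 3 probe sets of Siah1a passed. Its brightest, which stands for the gene, differed by -0.29 and did not (adjusted p = 0.213).

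Of the 50 often cited targets of beta-catenin, the longest of the 6 lists, 4 rose and 2 fell, where 3.70% of all genes were higher and 1.90% lower. Fn1, which encodes fibronectin, rose from 11.23, 11.32 and 11.23 to 13.66, 12.78 and 13.12, by 1.93 (adjusted p = 0.00214). Nrcam, a neural cell adhesion molecule, rose from 6.84, 6.54 and 6.91 to 8.70, 8.29 and 8.98, by 1.89 (adjusted p = 0.00174). Birc5, the mitotic protein survivin, rose from 5.80, 6.07 and 5.97 to 7.64, 7.15 and 6.92, by 1.29 (adjusted p = 0.00821). Ccn4, a matricellular protein first described as Wnt-induced, rose from 7.41, 7.12 and 7.00 to 8.30, 7.70 and 8.28, by 0.91 (adjusted p = 0.0317), and its other probe set differed by 1.29 without passing.

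Bambi, a pseudoreceptor of the TGF-beta family, fell from 8.35, 8.60 and 8.20 to 7.54, 7.54 and 7.46, by 0.87 (adjusted p = 0.00895). Efnb2, an ephrin of arteries, fell by 0.72 (adjusted p = 0.0468), but its 4 probe sets ran from -0.99 to 0.16 and it passed in 0 of the 6 fits with 1 array left out, where the adjusted p was 0.0535 to 0.124. Fn1, Nrcam and Bambi passed in all 6 such fits. Birc5 missed the threshold without array A (0.0554), and Ccn4 passed only without array E (0.0116), with up to 0.108 in the other 5.

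Other targets in the list did not pass in their brightest probe set, of which a few were chosen for mention after their values were seen. Apcdd1, an inhibitor at the cell surface, differed by 0.17. Notum, a secreted enzyme that inactivates Wnt proteins, differed by -0.33, the receptor-degrading ligase Rnf43 by -0.32 and the stem cell receptor Lgr5 by -0.10, while Sp5 differed by 0.48 (adjusted p = 0.0946). Myc differed by 0.53 (adjusted p = 0.112) and Ccnd1, which encodes cyclin D1, by 0.49 (adjusted p = 0.192). Cd44 differed by 0.71 (adjusted p = 0.0512), Gja1 by 0.76 (adjusted p = 0.0714) and Vegfa by -0.50 (adjusted p = 0.0797), each with groups apart. Cd44, Id2 and Eng each had 1 probe set that passed, which was not their brightest. The list's median was -0.03, against -0.04 for all genes.

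**Figure D4:**
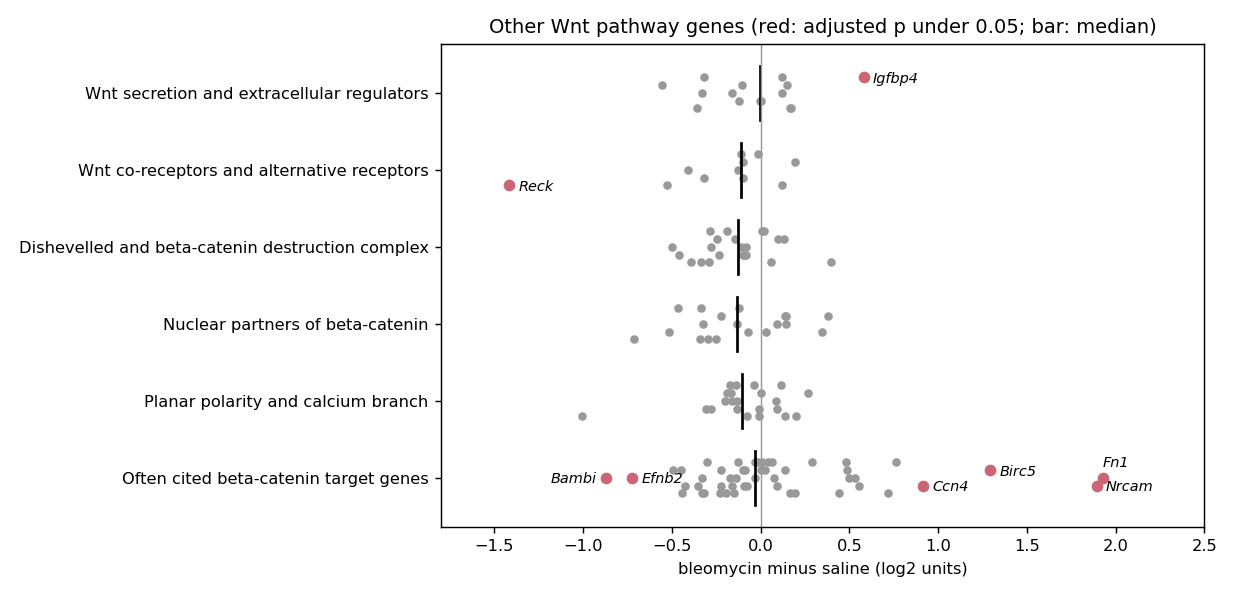
Difference between bleomycin and saline (horizontal axis, log2 units) for the genes of 6 lists of the pathway without the 49 members. Each point is a gene, red points with a name passed an adjusted p of 0.05, and bars are list medians, of which the lowest is -0.13.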

How the data were processed

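The authors deposited 1 log2 value per probe set and array, summarised by RMA with quantile scaling, per the labels and the design text. The log base follows from the largest value, 14.42, which lies under 16, the log2 limit of a 16-bit scanner. The RMA program, background step and chip definition were not given in the sources used here.

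Of 22690 probe sets, 64 controls were left out. Names came from GEO's platform annotation, and all 49 members matched the RefSeq table by Entrez ID. The 2 groups were fitted with limma 3.58.1 under R 4.3.3 (lmFit, eBayes, no covariates), with Benjamini-Hochberg adjustment over 22626 probe sets. Adjusted p-values are limma's, and the fit was tested on simulated data. It recovered 86 of 100 changes of 1 log2 unit and 100 of 100 of 2 log2 units, with 7 false among 193 calls. The noise was drawn from limma's own variance model and smaller changes were not simulated, so the test does not show how well those are found. Differences are bleomycin minus saline. Each array is a separate mouse, and letters A to F are unique, so nothing is paired. Arrays have no read depth, so the number of arrays limits the precision.

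Members, lists and named genes were chosen with earlier results of these data known. Values per array are given for members whose groups did not overlap and whose means differed by 0.5 log2 units or more (Sfrp2, Fzd4, Axin2). They are also given for others chosen after their values were seen. The alternatives were a filter on dim probe sets, a trended robust prior, array weights, repeated quantile normalization, centring on 92 probe sets of ribosomal protein genes, other choices of probe sets, thresholds of 0.01 and 0.1, and leaving out each array. Figures used Python 3.11.15 and matplotlib 3.10.9.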

Additional observations from a re-analysis of the deposited data

How the results depend on the processing

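Over 15 alternatives, 44 of the 49 members passed in none, and 34 of 49 kept the sign of their difference in all that gave them a value. With the trended robust prior, 1 member was higher (Fzd1, adjusted p = 0.0462) and 1 lower (Wif1, 0.0421), where 5.70% of all genes passed. With repeated quantile normalization, 1 was higher (Dkk2, 0.0486) and 1 lower (Fzd4, 0.0484), against 5.79% of all genes. With the mean of all probe sets, 1 was higher (Sfrp1) and 0 lower, against 6.63%. At a threshold of 0.1, 1 was higher (Fzd1) and 1 lower (Fzd4), against 10.3%. Over the other alternatives, single arrays left out included, 0 were higher and 0 lower. Of the other pathway genes 8 passed. The count was 5 at a threshold of 0.01 (1.32% of all genes) and 12 at 0.1, 10 with the mean of all probe sets, and 6 to 9 in the other settings with 6 arrays. With 1 array left out it was 3 to 6, with 3 without array A (1.49% of all genes) and 5 without C (2.90%) or F (2.20%), in fits with fewer samples. The cause of the other changes was not tested. Centring on ribosomal protein genes moved the median of all genes from -0.04 to -0.09 and that of the members from -0.08 to -0.13.

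The filter on dim probe sets removed 17 members (34.7%, against 18.2% of genes), Fzd1, Dkk2 and Wif1 among them, and with them the dimmest probe set of Sfrp1. Of the 32 members left 0 passed, against 6.99% of the genes left.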
